A study of Mus musculus with 2 samples.

Results

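The Ly6 genes described here are 7 genes from a region of mouse chromosome 15 (Ly6a, Ly6c1, Ly6c2, Ly6e, Ly6g, Ly6i and Ly6d). They are among the 31053 features of each count matrix. They were taken as a named list, chosen by their difference between the sham and the constricted hearts in these same libraries, so their ratios are given as a description and not as independent evidence.

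Single-cell RNA was measured in cells sorted for the leukocyte surface protein CD45 from hearts of C57BL/6 mice, which were wild type and 10 weeks old. One group had a sham operation and the other had transverse aortic constriction (TAC), which narrows the aorta so that the left ventricle works against a raised pressure. Each group is 1 library, for which the submitters give 6 mice, and no label separates the mice within it. The sources used here do not give the time between the operation and the harvest.

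Ly6 proteins are small, share the Ly6/uPAR fold and are held on the outer cell membrane by a glycosylphosphatidylinositol (GPI) anchor. Ly6a encodes Sca-1, an interferon-inducible antigen used to mark haematopoietic progenitors, endothelium and mesenchymal cells. Ly6c2 and Ly6c1 encode the near-identical Ly6C antigens, of which Ly6C on monocytes separates the classical from the patrolling type, Ly6g encodes the antigen used to sort neutrophils, Ly6d marks B lineage cells, and Ly6e is an interferon-inducible gene of broad expression.

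In the GENCODE vM21 annotation (GRCm38, which is the same assembly as mm10), all 7 genes are protein coding and lie within 397.1 kb. Their order along the chromosome is Ly6d (chr15:74762056-74763620), Ly6e (chr15:74955051-74959905), Ly6i (chr15:74979534-74983430), Ly6a (chr15:74994877-74998031), Ly6c1 (chr15:75044018-75048830), Ly6c2 (chr15:75108158-75111970) and Ly6g (chr15:75155240-75159126). Ly6e and Ly6g lie on the plus strand and the other 5 on the minus strand. The gene identifiers in the files are, in the same order, ENSMUSG00000034634, ENSMUSG00000022587, ENSMUSG00000022586, ENSMUSG00000075602, ENSMUSG00000079018, ENSMUSG00000022584 and ENSMUSG00000022582, and all 7 match the annotation.

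Reads of the 3′ ends of transcripts can fall in sequence that genes share, and the ends of the 2 Ly6c genes are partly shared. Of the 90-base stretches in the last 500 bases of its transcripts, 13.8% of those of Ly6c1 (228 of 1652) also occurred in a transcript of Ly6c2 or Ly6a. For Ly6c2 the share was 19.3% (134 of 696), in Ly6c1. For the other 5 genes it was 0. Small values of one Ly6c gene beside large values of the other are thus uncertain.

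RefSeq start sites (GRCm38.p6) were given for 3 of the 7 genes (Ly6c1, Ly6c2 and Ly6g), and not for Ly6a, Ly6d, Ly6e or Ly6i. These 3 sequences are shown because the genes are close relatives that were high in different cell classes, endothelial cells, monocytes and neutrophils. Each is the part of the 250 bases before the first listed start that lies outside the RefSeq gene, 5′ to 3′ on the gene's strand, at chr15:75048921-75049087 (minus strand) for Ly6c1, chr15:75112067-75112221 (minus strand) for Ly6c2 and chr15:75155011-75155260 (plus strand) for Ly6g. Capitals mark GAGGAAGT, a PU.1-type ETS motif whose letters were chosen after the sequences had been seen.
Ly6c1: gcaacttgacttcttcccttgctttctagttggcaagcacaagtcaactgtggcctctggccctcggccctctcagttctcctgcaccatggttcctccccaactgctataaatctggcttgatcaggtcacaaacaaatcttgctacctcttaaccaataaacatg
Ly6c2: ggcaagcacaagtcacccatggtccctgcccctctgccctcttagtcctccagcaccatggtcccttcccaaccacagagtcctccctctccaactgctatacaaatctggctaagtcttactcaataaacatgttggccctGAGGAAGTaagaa
Ly6g: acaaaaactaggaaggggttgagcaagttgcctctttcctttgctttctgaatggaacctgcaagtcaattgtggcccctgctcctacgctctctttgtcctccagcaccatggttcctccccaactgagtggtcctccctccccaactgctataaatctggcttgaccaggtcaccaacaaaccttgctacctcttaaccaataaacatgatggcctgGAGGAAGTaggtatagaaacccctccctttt
Aligned over the full windows, Ly6c1 and Ly6g were identical at 175 of 231 columns (75.8%), Ly6c1 and Ly6c2 at 170 of 234 (72.6%), and Ly6c2 and Ly6g at 139 of 208 (66.8%).

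Motifs were searched on both strands of the 250 bases before the first listed start, and overlapping matches were allowed. GAGGAAGT stood at -108 in Ly6c2 and at -31 in Ly6g, counted from the start, and Ly6c1 held it only before its second listed start, at -127. Of 32851 RefSeq promoters of that length, 2.44% held it. TATAAA, the TATA box, occurred in Ly6c1 at -143 and in Ly6g at -99, with no match in Ly6c2, and in 12.4% of all promoters. Neither TTCNNNGAA, the interferon-gamma-activated site (7.02% of all promoters), nor GAAANNGAAA, a form of the interferon-stimulated response element (2.98%), matched in the 3 windows. A match or its absence describes the letters only.

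The sham library held 11941 barcodes, of which 4169 were kept, and the TAC library 7975, of which 5600 were kept. Most of the barcodes left out had over 10% mitochondrial UMIs, 7590 in sham and 2246 in TAC. Kept cells carried medians of 9536 and 13891.5 unique molecular identifiers (UMIs). Classes are named for their markers, with no Ly6 gene used in clustering or naming, and a name means only that a cluster resembles the class. Compared classes held, in sham and TAC, 2753 and 2602 macrophages, 66 and 362 monocytes, 155 and 300 T cells, 53 and 76 NK cells, 160 and 58 B cells, 117 and 407 endothelial cells, and 212 and 248 fibroblasts. Neutrophils numbered 21 in sham and 1158 in TAC and were not compared. The sort was for CD45, yet its gene Ptprc was found in 38.5% and 19.2% of the endothelial cells and in 18.4% and 16.9% of the fibroblasts.

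RNA of other cells was present in many barcodes. Barcodes with at least 50 C1qa, C1qb and C1qc UMIs in 10000, called C1q-rich here after these macrophage genes, made up 96.3% of sham and 72.4% of TAC B cells, 94.3% and 44.7% of NK cells, and 87.1% and 68.0% of T cells. The shares were lower in monocytes (43.9% and 31.5%), endothelial cells (34.2% and 7.86%) and fibroblasts (10.8% and 7.26%). Barcodes with at least 100 S100a8 and S100a9 UMIs in 10000, called S100-rich after these neutrophil genes, made up 0% of sham and 19.9% of TAC monocytes. The doublet caller marked 0 sham and 1 TAC barcode, so doublets were in effect not removed. The 2 libraries shared 35 barcodes, 7 of them kept.

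Across the 7 classes compared, 40 of 49 gene and class pairs reached 20 UMIs over both libraries. In 35 of these 40 the TAC level was at least 1.5-fold higher and in 1 it was at least 1.5-fold lower. In 4 it was within 1.5-fold, counting Ly6d in monocytes, which had 0 sham UMIs and only a lower bound, 0.692-fold. The 35 include Ly6g in macrophages, monocytes, T cells, B cells and NK cells and Ly6d in endothelial cells. In these pairs most TAC UMIs were in S100-rich barcodes or, for Ly6d, in barcodes with a B cell gene. Most UMIs of the 1 lower pair, Ly6d in T cells, were also in barcodes with a B cell gene. Levels are UMIs of the gene per 1000000 UMIs of the class (CPM). All intervals are 95% and cover counting error only, since with 1 library per group no difference could be tested against the spread between mice. Operation, library and GEM well cannot be told apart, and in 2 of the 36 calls, Ly6c1 and Ly6g in NK cells, the interval of the ratio included 1.

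By class, macrophages had 6 of 6 members higher in TAC, where 14.6% of all genes with 20 UMIs were higher. Monocytes had 6 of 7 higher against 16.9% of all genes, and endothelial cells 5 of 6 against 15.7%. Fibroblasts had 3 of 4 higher against 9.69%, and B cells 4 of 5 against 14.9%. NK cells had 5 of 5 higher against 24.8%, and 0 lower against 20.2% of all genes, and T cells 6 of 7 against 19.7%, with 1 of 7 lower against 19.0%. With C1q-rich and S100-rich barcodes left out, 3 members were higher in T cells, Ly6a (9.55), Ly6c2 (4.34) and Ly6e (1.67). Ly6c1 was lower there, at a ratio of 0.534 (0.244 to 1.29). The share of all genes in that setting is not given. The class counts include the Ly6g and Ly6d pairs named above. Since the genes were proposed for these differences, nothing follows from the counts about the family as against other genes. The median log2 ratio of the members that reached 20 UMIs lay between 0.95 (NK cells) and 3.47 (macrophages), and that of all genes between -0.09 and 0.08.

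**Figure D1:**
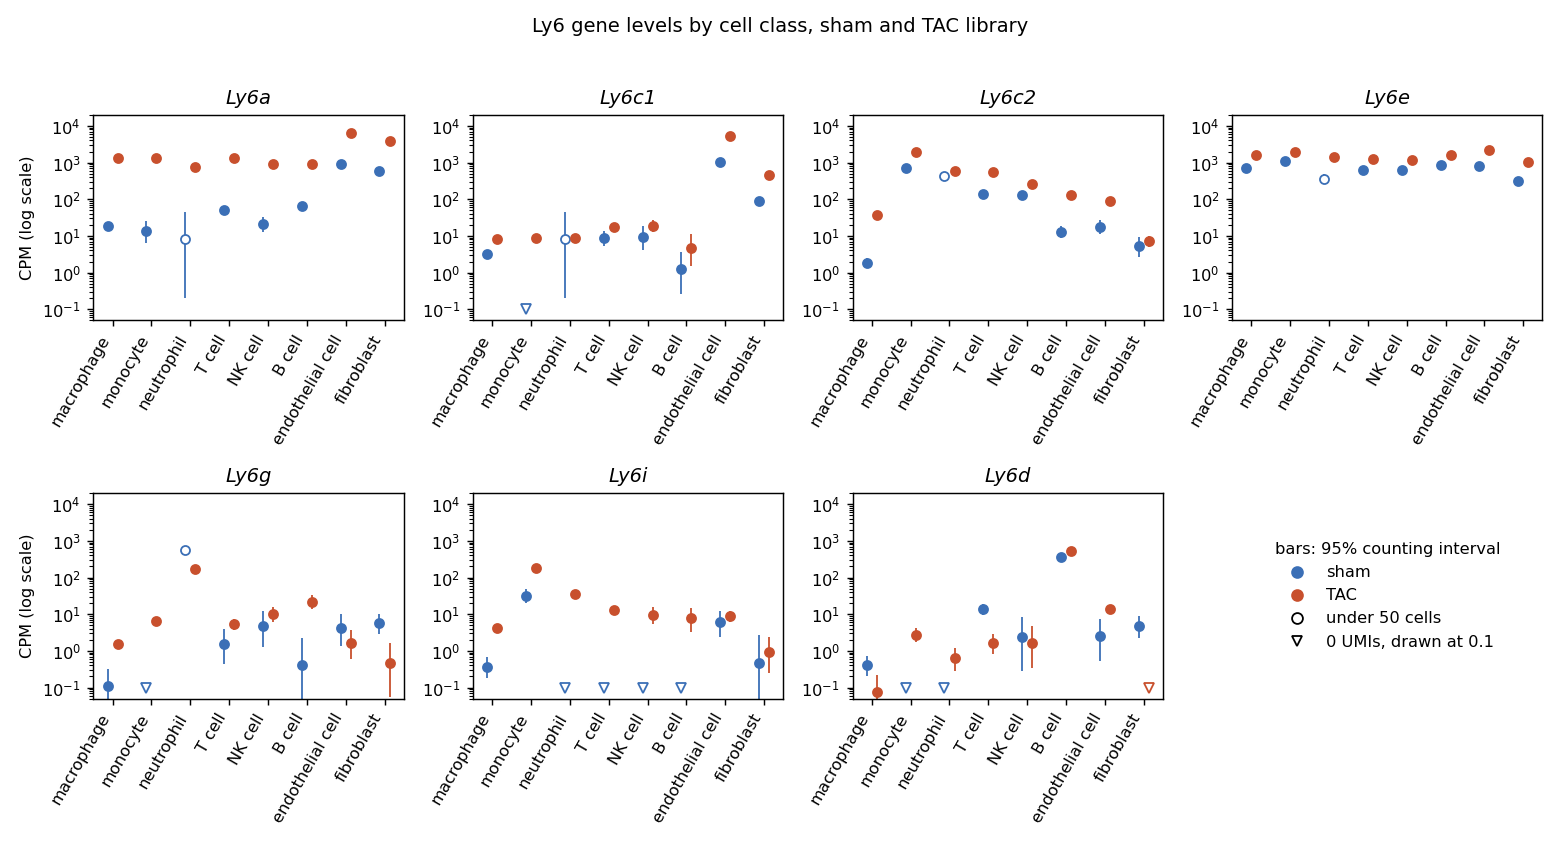
Level of each Ly6 gene in each cell class, in UMIs per 1000000 UMIs of the class (CPM, log axis), in the sham and TAC libraries, with exact Poisson 95% intervals. Ly6a stands higher in TAC in all 7 compared classes, from 6.77-fold in endothelial cells to 100.05-fold in monocytes.

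Ly6a, like Ly6e, was higher in TAC in every compared class. In macrophages it went from 484 UMIs in 2753 sham cells to 55006 UMIs in 2602 TAC cells, which is 18.1 CPM (16.5 to 19.8) and 1353 CPM (1342 to 1365). The ratio was 74.8 (68.4 to 81.9). Sham macrophages thus held Ly6a at a level close to that in sham NK cells, while TAC macrophages held it at the level of TAC monocytes and T cells.

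Monocytes carried 10 Ly6a UMIs in sham and 10116 in TAC, at 13.4 and 1344 CPM, a ratio of 100.05 (54.4 to 209). The ratio was 66.4 (33.6 to 154) in barcodes that were neither C1q-rich nor S100-rich. Ly6a in T cells was at 51.1 CPM in sham and 1317 in TAC, a ratio of 25.8 (21.7 to 30.9). In the 19 sham and 92 TAC T cells without C1q-rich or S100-rich barcodes it was at 133 and 1271 CPM, a ratio of 9.55 (6.63 to 14.3). The T cell difference thus had the same direction in these cells and was smaller.

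For each class a second level was computed, the one it would have if all its C1q RNA had arrived together with the RNA of that library's macrophages. In TAC this carried level of Ly6a was 785 CPM in T cells against 1317 measured, 553 in NK cells against 885.5, and 876 in B cells against 886. The interval of the B cell level (830 to 945) included the carried level. The 14 TAC B cells that were neither C1q-rich nor S100-rich had 577 CPM (457 to 719), and the 6 in sham had 63.0. How much of the TAC value of all B cells was their own Ly6a was not tested. NK cells had 21.1 CPM in sham, a ratio of 42.0 (26.5 to 71.0), and B cells 64.2 CPM, a ratio of 13.8 (11.6 to 16.5). In sham the carried level was 13.9 CPM in B cells and lower in T and NK cells.

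Stromal cells held the most Ly6a in both libraries, and their ratios were the smallest. Endothelial Ly6a was 919.9 CPM in sham (866 to 976) and 6228 in TAC (6147 to 6310), a ratio of 6.77 (6.37 to 7.20). Fibroblast Ly6a was 577 CPM in sham and 3955 in TAC, a ratio of 6.85 (6.46 to 7.26). Without C1q-rich and S100-rich barcodes these ratios were 5.79 and 6.40. With up to 25% mitochondrial UMIs allowed, the endothelial ratio was 2.24 on the log2 scale against 2.76. The carried level was at most 199 CPM in either class, far under what was measured.

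The order of the classes by Ly6a in sham was endothelial cells, fibroblasts, B cells, T cells, NK cells, macrophages and monocytes. The intervals of B and T cells overlapped, as did those of NK cells, macrophages and monocytes. In TAC the order was endothelial cells, fibroblasts, macrophages, monocytes, T cells, B cells, NK cells, neutrophils (736 CPM) and conventional dendritic cells (545 CPM). There macrophages (1353 CPM), monocytes (1344) and T cells (1317) could not be separated, and neither could B and NK cells. Neutrophils in TAC had a carried level of 711 CPM, and their 731 cells that were not C1q-rich had 226 CPM. Barcodes left out for having under 300 genes had 31.9 CPM of Ly6a in sham and 217 in TAC.

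The share of cells with a Ly6a UMI was taken after thinning each cell to 1000 UMIs, so that depth was equal. It went from 1.24% of sham macrophages (0.857 to 1.72) to 40.5% of TAC macrophages (38.6 to 42.4), where unthinned cells gave 5.27% and 74.5%. In monocytes 0 of 66 sham cells (interval up to 5.44%) and 56.9% of TAC cells (51.6 to 62.1) had a UMI. Unthinned, 7.58% and 92.5% did. In endothelial cells the shares were 56.4% and 96.3%, and in fibroblasts 31.3% and 86.2%. TAC neutrophils, where Ly6a was close to the carried level, stood at 26.9%. At 1000 UMIs a TAC endothelial cell held a mean of 7.24 Ly6a UMIs and a sham endothelial cell 1.11.

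**Figure D2:**
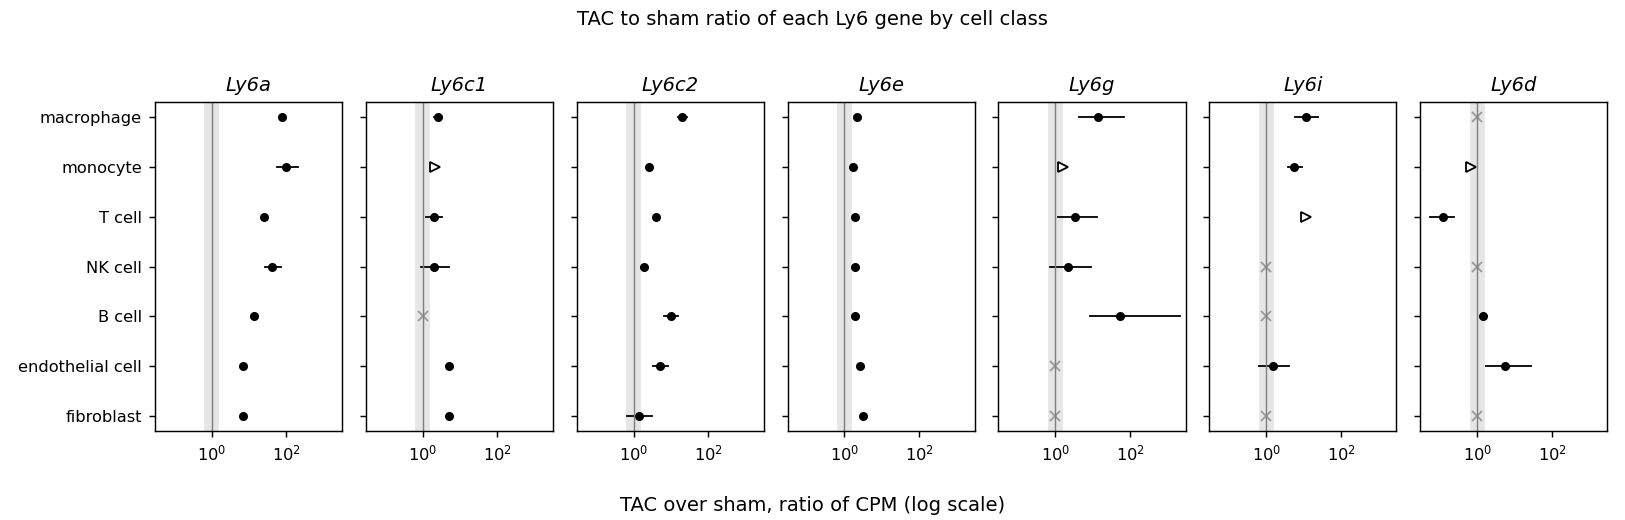
Ratio of the TAC to the sham level of each Ly6 gene by cell class on a log axis, with exact 95% intervals of counting error. Filled points are ratios, open triangles are lower bounds where sham had 0 UMIs, grey crosses mark pairs under 20 UMIs with no ratio, and the grey band is within 1.5-fold. Points lie right of the band for 35 of 40 pairs and Ly6d in T cells lies left of it.

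Macrophages of the 2 libraries were mostly in different clusters, so Ly6a was also read within clusters. Clusters 0, 1 and 3 held 2525 of the 2753 sham macrophages, and clusters 2, 12, 14 and 19 held 2385 of the 2602 TAC macrophages. Clusters 0 and 1 are led by the heat shock genes Hspa1b and Hspa1a. There Ly6a was at 13.1 CPM in sham and 44.7 in TAC (ratio 3.41, 2.14 to 5.29) and at 10.8 and 65.9 (ratio 6.10, 4.13 to 8.89). In cluster 3, led by Retnla, Vsig4 and Cd163, it was at 23.5 and 191 CPM, a ratio of 8.14 (6.69 to 9.91).

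Cluster 2, led by cell-cycle genes such as Aspm and Melk, held 162 sham and 330 TAC cells. Its Ly6a was at 14.1 and 1349 CPM, a ratio of 95.4 (69.2 to 136). Of the 55006 Ly6a UMIs of TAC macrophages, cluster 2 held 11883. Clusters 12, 14 and 19, which were nearly all TAC cells, held 28227, 8203 and 6406. Cluster 12, with Ccl8, Timd4 and Gbp2b, was at 2177 CPM in TAC, cluster 19, with Ccr2 and H2-Eb1, at 1092, and cluster 14, with Tnf, Ccl3 and Ccl4, at 774. Within the clusters common in both libraries the ratio of Ly6a thus ranged from 3.41 to 95.4, and the class ratio of 74.8 also holds the change in which clusters were present.

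**Figure D3:**
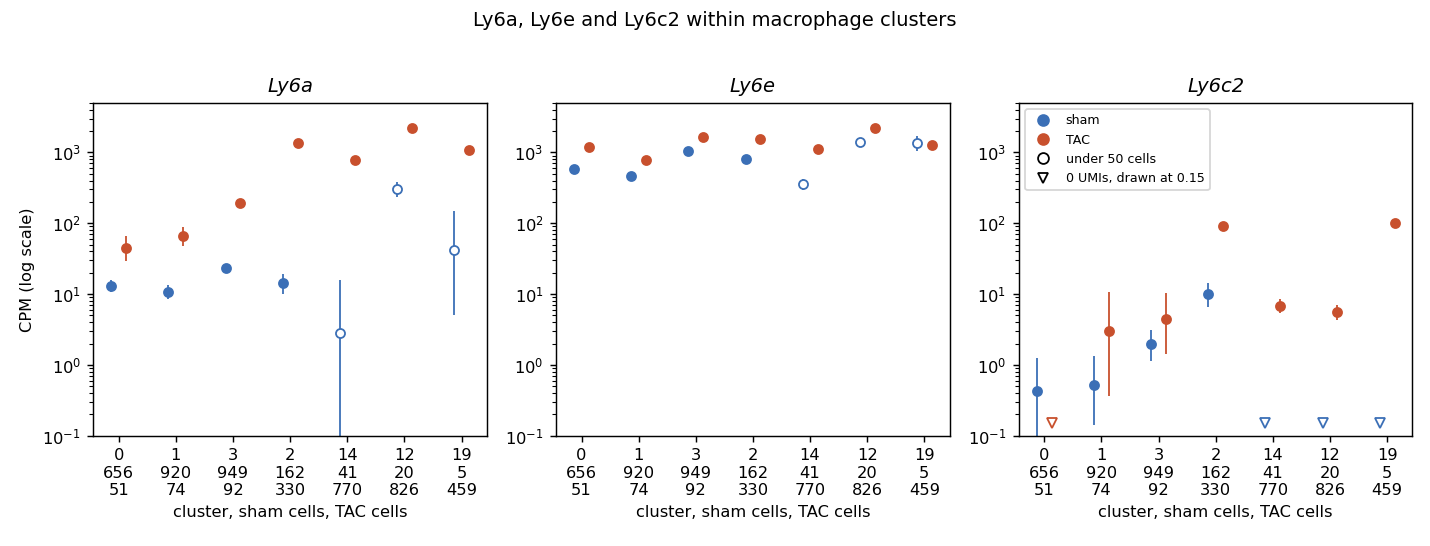
Ly6a, Ly6e and Ly6c2 levels in each macrophage cluster (CPM, log axis) in the sham and TAC libraries with exact Poisson 95% intervals. Ly6a is low in both libraries in clusters 0, 1 and 3 and above 700 CPM in TAC in clusters 2, 12, 14 and 19.

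Markers of resident macrophages split the class further. TAC macrophages with a UMI of Lyve1, Folr2 or Timd4, genes of resident cells, had 1753 CPM of Ly6a against 1013 without. The sham values were 19.0 and 15.3 CPM. Cells with the monocyte chemokine receptor gene Ccr2 had 1261 CPM in TAC and cells without had 1361. Ly6a was therefore high in TAC on both sides of each split.

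Among TAC monocytes, those with a UMI of Treml4 or Ace, genes of patrolling monocytes, had 1514 CPM of Ly6a and the others 1179. TAC endothelial cells with a UMI of Npr3 or Vwf, endocardial and large-vessel genes, had 4934 CPM and the others 6596. In TAC fibroblasts, those with Postn or Cthrc1, genes of activated fibroblasts, had 3903 CPM and the others 4105, while in sham the values were 912 and 529. In sham the cells with these genes were few, 22 of 211.

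Ly6e had the smallest spread of ratios: it was found in every class and was 1.66-fold to 3.15-fold higher in TAC in all 7. Macrophages held 723 CPM in sham (713 to 733) and 1582 in TAC (1569 to 1594), a ratio of 2.19 (2.15 to 2.22). Fibroblasts were the lowest class in both libraries, at 321 and 1011 CPM, with the highest ratio, 3.15 (2.90 to 3.42). Endothelial cells went from 827 to 2204 CPM, a ratio of 2.66 (2.49 to 2.85). They were the highest class in TAC but not in sham. With up to 25% mitochondrial UMIs allowed, their ratio was 1.14 on the log2 scale against 1.41. Monocytes were at 1129.5 and 1879 CPM, a ratio of 1.66 (1.55 to 1.79).

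Lymphocytes had close ratios of Ly6e, 1.92 (1.82 to 2.03) in T cells, 1.91 (1.74 to 2.10) in NK cells and 1.97 (1.84 to 2.10) in B cells. Their levels in TAC were 1226, 1209.7 and 1642 CPM, each above the carried level of 918, 647 and 1024 CPM. At 1000 UMIs 41.1% of sham and 70.9% of TAC macrophages had a Ly6e UMI, where unthinned cells gave 83.0% and 98.6%. Within macrophage clusters the ratio was 2.07 in cluster 0, 1.69 in cluster 1, 1.59 in cluster 3 and 1.88 in cluster 2. In clusters 12, 14 and 19, with only 20, 41 and 5 sham cells, it was 1.58, 3.10 and 0.965 (0.755 to 1.25). Unlike Ly6a, Ly6e was thus already high in the sham clusters. TAC macrophages with Lyve1, Folr2 or Timd4 had 1966 CPM of Ly6e and those without 1255, and in sham the values were 802 and 470.

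Ly6c2 was a monocyte gene in both libraries, with lower levels in neutrophils, T cells and NK cells. Monocytes carried 725 CPM in sham (665 to 789) and 1924 in TAC (1893 to 1955), a ratio of 2.65 (2.43 to 2.90). Without C1q-rich and S100-rich barcodes the ratio was 2.13 (1.94 to 2.35). The share of monocytes with a UMI at a depth of 1000 was 37.9% (26.2 to 50.7) and 56.1% (50.8 to 61.3), and unthinned it was 71.2% and 80.1%. In macrophages the thinned share was 0.109% and 1.77%.

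The monocyte class held both types that Ly6C separates. In TAC, monocytes without Treml4 or Ace had 2905 CPM of Ly6c2 and those with them 913, and in sham the values were 1055 and 122. Ly6c2 was thus higher in TAC on both sides, and lower in the patrolling-like cells of both libraries. The class mean also depends on the mix, which was 43 without and 23 with these genes in sham and 167 and 195 in TAC. This split took all UMIs of a cell, so deeper cells more readily count as with. Monocytes had medians of 9548.5 UMIs in sham and 17237 in TAC. At Leiden resolution 2, the monocyte cluster led by Cd300e and Treml4 (18 sham and 132 TAC cells) had 9.27 and 189 CPM of Ly6c2. The other monocyte cluster (49 and 204 cells) had 992 and 2868 CPM.

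T cells had 143 CPM of Ly6c2 in sham and 554 in TAC, a ratio of 3.87 (3.48 to 4.33), and 4.34 without C1q-rich and S100-rich barcodes. Those with Cd8a or Cd8b1 and no Cd4 had 284 CPM in sham (65 cells) and 650 in TAC (225 cells). Those with Cd4 alone had 9.86 CPM in sham, from 3 UMIs in 16 cells, and 163 CPM in TAC (26 cells). In both libraries Ly6c2 was therefore mainly in the CD8 cells. NK cells had 134 and 253 CPM, a ratio of 1.89 (1.54 to 2.34), but 0.381 (0.234 to 0.662) in the 3 sham and 40 TAC cells that were neither C1q-rich nor S100-rich.

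In macrophages Ly6c2 went from 50 to 1528 UMIs, 1.87 to 37.6 CPM, a ratio of 20.1 (15.2 to 27.2). Macrophages with Ccr2 had 142 CPM in TAC and those without had 28.4. In the cycling cluster 2 it was at 9.93 and 90.1 CPM, a ratio of 9.07 (6.14 to 14.0), and in cluster 19 at 99.2 CPM in TAC. Cluster 12, the highest for Ly6a, had 5.55 CPM and cluster 14 had 6.89. Cluster 2 was second in TAC for both Ly6a and Ly6c2, while the highest clusters for the genes, 12 and 19, differed. The class ratio ranged from 3.03 to 5.01 on the log2 scale over the settings tried, around 4.32.

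B cells had 12.8 and 128 CPM of Ly6c2, a ratio of 9.95 (6.69 to 15.2), and endothelial cells 17.9 and 89.6 CPM, a ratio of 5.02 (3.23 to 8.22). The endothelial ratio ranged from 0.93 to 3.49 on the log2 scale over the settings. Fibroblasts had 5.19 and 7.16 CPM, a ratio of 1.38 (0.676 to 3.05). Without C1q-rich and S100-rich barcodes the fibroblast ratio was 13.4 (2.23 to 548), from 1 sham UMI. The part of other cells' RNA in these low values was not tested.

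Ly6c1 was an endothelial gene. Endothelial cells carried 1023 CPM in sham (966 to 1082) and 5326 in TAC (5251 to 5401), a ratio of 5.21 (4.91 to 5.52). With up to 25% mitochondrial UMIs allowed, the ratio was 1.67 on the log2 scale against 2.38. Fibroblasts had 90.03 CPM in sham and 470.2 in TAC, a ratio of 5.22 (4.50 to 6.09). The share of endothelial cells with a UMI at 1000 UMIs was 53.0% and 95.1% (unthinned 86.3% and 98.3%), against 0% and 1.38% of monocytes.

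Mural cells, too few to compare, had 2159 CPM of Ly6c1 in 4 sham cells and 2756 in 25 TAC cells. TAC endothelial cells with Npr3 or Vwf had 3820 CPM and the others 5754. The 3 finer endothelial clusters had 1399, 428 and 2460 CPM in sham and 2809, 1865 and 7162 in TAC, with 53, 50 and 10 sham and 35, 78 and 296 TAC cells. Ly6c1 was thus higher in TAC in each of them, and the one with the highest level held 10 sham and 296 TAC cells.

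In leukocytes Ly6c1 was low. Macrophages had 3.18 and 8.12 CPM, a ratio of 2.55 (2.01 to 3.28), and in cluster 2 alone the ratio was 0.983 (0.643 to 1.55). T cells had 8.71 and 17.3 CPM, a ratio of 1.99 (1.25 to 3.29), which turned to 0.534 (0.244 to 1.29) without C1q-rich and S100-rich barcodes. NK cells had 9.38 and 19.0 CPM, a ratio of 2.03 (0.921 to 5.07). Monocytes had 0 sham UMIs and 8.77 CPM in TAC, at least 2.18-fold higher. Barcodes left out for having under 300 genes held 57.6 CPM of Ly6c1 in sham and 134 in TAC, more than any compared leukocyte class. The part of free RNA in the leukocyte values was not tested.

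**Figure D4:**
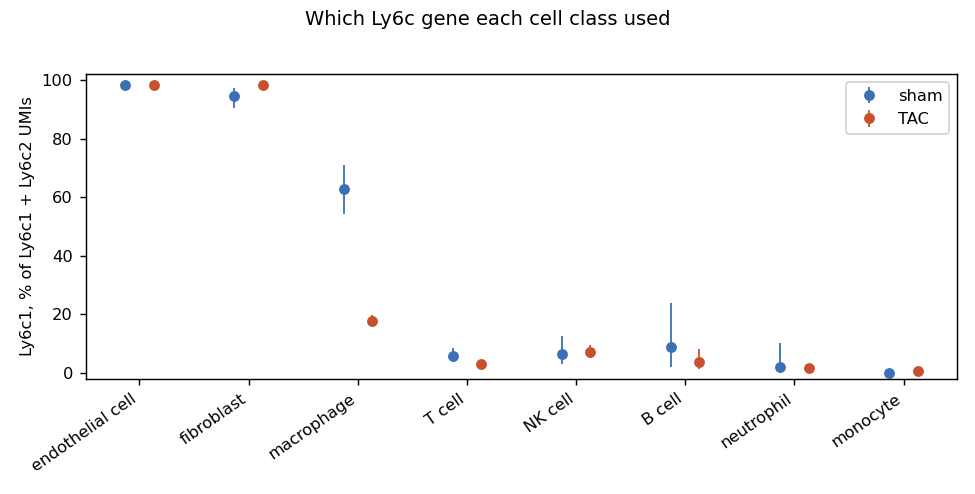
Ly6c1 as a percent of the UMIs of Ly6c1 and Ly6c2 in each cell class, with exact Clopper-Pearson 95% intervals, in sham and TAC. Endothelial cells and fibroblasts lie above 90% and monocytes, neutrophils and lymphocytes under 10% in both libraries, and macrophages lie at 63.0% and 17.8%.

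Which of the 2 Ly6c genes a class carried was nearly the same in both libraries. Ly6c1 made up 98.3% of the Ly6c UMIs of endothelial cells in sham and 98.3% in TAC, and 94.6% and 98.5% in fibroblasts. It made up 0 of 540 UMIs in sham monocytes (interval up to 0.681%), and 0.454% in TAC monocytes. In neutrophils the shares were 1.89% and 1.46%, and in T cells 5.74% and 3.03%. Macrophages were the exception, at 63.0% (54.2 to 71.1) of 135 UMIs in sham and 17.8% (16.0 to 19.6) of 1858 UMIs in TAC.

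Ly6g was a neutrophil gene, and neutrophils were too few in sham to compare. The 21 sham neutrophils held 72 UMIs (577 CPM, 452 to 727) and the 1158 TAC neutrophils 2407 UMIs (168 CPM, 161 to 175). Cells that were not C1q-rich had 494 CPM in sham (18 cells) and 340 in TAC (731 cells). At 1000 UMIs 5 of 21 sham cells (23.8%, 8.22 to 47.2) and 14.3% of TAC cells (12.4 to 16.5) had a Ly6g UMI. Unthinned, the shares were 33.3% and 44.6%. The 4 finer TAC neutrophil clusters, 32, 33, 34 and 37, had 285, 359, 213 and 51.4 CPM of Ly6g.

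The same 4 clusters had 1035, 1022, 877 and 288 CPM of Ly6c2 and 12.9, 94.5, 71.9 and 33.7 CPM of Ly6i. Cluster 37, the lowest for Ly6g and Ly6c2, was the one rich in C1q. For Ly6i the lowest was cluster 32 instead. All TAC neutrophils together had 575 CPM of Ly6c2 and the sham neutrophils 417.

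Outside neutrophils Ly6g followed the S100 genes. S100-rich barcodes were 2.94% of the other sham cells and 3.83% of the other TAC cells. They held 47 of the 51 Ly6g UMIs in sham (92.2%) and 173 of the 205 in TAC (84.4%). The ratios of Ly6g in other classes are therefore given only as values. They were 13.4 (4.37 to 66.7) in macrophages, from 3 and 61 UMIs, 53.0 (8.60 to 2182) in B cells, from 1 and 23 UMIs, and 3.31 (1.19 to 12.8) in T cells, from 4 and 36 UMIs.

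For NK cells the Ly6g ratio was 2.15 (0.707 to 8.72), and monocytes had 0 and 48 UMIs, at least 1.58-fold higher in TAC. Without S100-rich and C1q-rich barcodes monocytes held 0 and 3 UMIs and T cells 0 and 0. On the log2 scale the macrophage ratio of 3.53 was 0.91 with looser naming, and 51 of its 61 TAC UMIs were in cluster 2. Endothelial cells (5 and 6 UMIs) and fibroblasts (12 and 2 UMIs) stayed under 20 UMIs.

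**Figure D5:**
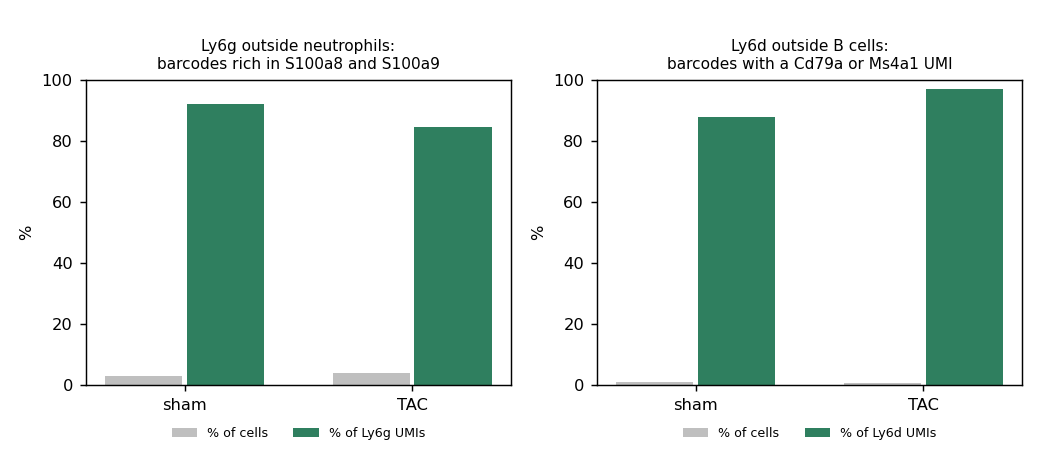
Percent of cells (grey) and percent of UMIs (green) that fell in S100-rich barcodes for Ly6g outside neutrophils, and in barcodes with a Cd79a or Ms4a1 UMI for Ly6d outside B cells, in sham and TAC. Under 4% of cells held between 84.4% and 96.9% of the UMIs.

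Ly6i, a close relative of Ly6a and Ly6c, was a monocyte gene. Monocytes held 32.2 CPM in sham (20.7 to 48.0) and 179 in TAC (170 to 189), a ratio of 5.56 (3.72 to 8.71), and 7.82 without C1q-rich and S100-rich barcodes. Its split ran against that of Ly6c2: TAC monocytes with Treml4 or Ace had 254 CPM of Ly6i and those without had 107, and sham monocytes had 60.8 and 16.6. In both libraries the patrolling-like monocytes thus held more Ly6i and less Ly6c2. At 1000 UMIs 3.03% of sham and 19.9% of TAC monocytes had a Ly6i UMI, and unthinned 25.8% and 69.6%.

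Macrophages had 0.374 and 4.16 CPM of Ly6i, a ratio of 11.1 (5.90 to 23.6), with 10.8 CPM in cluster 2 and 8.69 in cluster 19 in TAC. T cells had 0 sham UMIs and 92 in TAC (13.4 CPM), at least 11.3-fold higher. Without C1q-rich and S100-rich barcodes they had 0 and 20 UMIs. The lower bound was 1.19-fold, so whether the ratio passed 1.5-fold is open. Endothelial cells had 5.95 and 8.80 CPM, a ratio of 1.48 (0.641 to 3.97), and of 0.922 (0.394 to 2.50) without those barcodes. TAC neutrophils held 35.8 CPM. NK cells (0 and 17 UMIs), B cells (0 and 8) and fibroblasts (1 and 4) had under 20.

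Ly6d was a B cell gene, and its level over all B cells was within 1.5-fold. B cells carried 880 UMIs in sham and 552 in TAC, 364.5 CPM (341 to 389) and 526.5 CPM (484 to 572). The ratio was 1.44 (1.30 to 1.61). On the log2 scale this was 0.53, and it was past 1.5-fold at 0.85 after thinning to 1000 UMIs and at 0.74 with cells weighted equally. In the 6 sham and 14 TAC B cells that were neither C1q-rich nor S100-rich the ratio was 4.44 (2.81 to 7.38). At 1000 UMIs 32.5% of sham and 37.9% of TAC B cells had a Ly6d UMI, and unthinned 93.1% and 87.9%. Macrophages had 0% in both libraries at that depth.

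The other Ly6d values came from few cells. In T cells it was at 13.5 CPM in sham and 1.60 in TAC, 8.41-fold lower (4.16 to 18.4), from 34 UMIs in 10 sham cells and 11 UMIs in 2 TAC cells. Barcodes with a UMI of the B cell genes Cd79a or Ms4a1 held 31 of the 34 and all 11. Without C1q-rich and S100-rich barcodes T cells had 0 sham and 4 TAC UMIs. In endothelial cells it was at 2.55 and 13.7 CPM, a ratio of 5.39 (1.74 to 27.0), from 3 UMIs in 1 sham cell and 50 in 5 TAC cells, each with a B cell gene. With up to 25% mitochondrial UMIs the endothelial log2 ratio was 0.75 against 2.22.

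Over all cells outside the B cells, barcodes with such a gene made up 1.10% of sham and 0.776% of TAC cells. They held 93 of 106 Ly6d UMIs in sham (87.7%) and 94 of 97 in TAC (96.9%). Monocytes had 0 and 21 UMIs, all 21 in 3 such barcodes. Fibroblasts (10 and 0 UMIs), macrophages (11 and 3) and NK cells (2 and 3) were under 20.

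Over the 16 class and library sums of at least 50 cells, the pattern of each member was compared with 4994 genes by Pearson correlation of log2(CPM + 1). These sums share their library and their carried RNA, so the values are descriptions. The 3 nearest genes to Ly6a were Gbp6 (r = 0.957), Aig1 (0.929) and Ifi44 (0.929), and those to Ly6e were Ogfr (0.947), Dtx3l (0.941) and Tmbim6 (0.920). Nearest to Ly6c1 were Art3 (0.966), Pdgfd (0.955) and Jam2 (0.947), and nearest to Ly6c2 were Itgal (0.922), Cdkn2d (0.887) and Ltb4r1 (0.868). Ly6i was nearest to Rhov (0.941), Fis1 (0.929) and Gpr141 (0.921), and Ly6g to Cwc25 (0.922), Mrgpra2b (0.905) and Ceacam10 (0.876). Ly6d was nearest to Igkc (0.992), Cd79a (0.992) and Fcmr (0.976), genes of the B lineage.

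Interferon-stimulated genes, listed here without any Ly6 gene, were mostly higher in TAC. Of 44 such genes in the files, 39 of 43 with 20 UMIs were higher in macrophages, 42 of 43 in endothelial cells, 39 of 43 in fibroblasts, 37 of 43 in monocytes, 38 of 43 in T cells, 38 of 42 in B cells and 30 of 42 in NK cells, with 1 lower. The share of all genes that were higher was 14.6% in macrophages, 15.7% in endothelial cells and 9.69% (fibroblasts) to 24.8% (NK cells) in the other classes. The median log2 ratio of the list was 2.09 in macrophages, 2.20 in endothelial cells and fibroblasts, and 1.59 to 2.16 in the other classes. The guanylate-binding protein gene Gbp2 went from 20.6 to 627 CPM in macrophages and Gbp4 from 1.98 to 197. The chemokine gene Cxcl9 went from 98.6 to 3606 CPM in endothelial cells. Oas2, an antiviral synthetase gene, was at 34.4 and 24.4 CPM in macrophages, a ratio of 0.707 (0.646 to 0.774).

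Receptors and signalling genes of the interferons differed less. In macrophages 9 of 21 were higher and 1 was lower, where 14.6% and 22.5% of all genes were. The median log2 ratio of these 21 genes was 0.25. The transcription factor gene Irf7 went from 36.0 to 239 CPM, while the interferon-gamma receptor gene Ifngr1 was at 249.6 and 159.7 CPM. In endothelial cells 11 of 21 were higher and 2 lower, where 15.7% and 15.6% of all genes were. In the other classes 8 to 10 of 20 to 22 were higher, where 9.69% (fibroblasts) to 24.8% (NK cells) of all genes were. In T cells the interferon gene Ifng was at 35.6 and 246 CPM, a ratio of 6.90 (5.58 to 8.62).

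Genes that make and attach the GPI anchor, which Ly6 proteins need, passed 1.5-fold in few cases in macrophages and endothelial cells. In macrophages 2 of 28 were higher and 2 lower (median of the log2 ratios -0.14), where 14.6% and 22.5% of all genes were. In endothelial cells 0 of 19 were higher and 1 lower (median -0.02), where 15.7% and 15.6% of all genes were. Pgap2, which remodels the anchor's lipid, was at 31.9 and 52.0 CPM in macrophages. In B cells 0 of 19 were higher and 5 lower, where 24.5% of all genes were lower. In NK cells 6 of 17 were higher, where 24.8% of all genes were, and in monocytes 6 of 24, where 16.9% were. In T cells 3 of 27 were higher and 3 lower, where 19.7% and 19.0% of all genes were. In fibroblasts 0 of 23 were higher and 2 lower, where 9.69% and 19.2% of all genes were.

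Other genes of the Ly6/uPAR family were mostly too low to compare. Of 38 listed, 35 were in the files, 13 had 0 UMIs in kept cells and 11 had 20 UMIs in a compared class. Plaur, the urokinase receptor, was at 21.3 and 74.1 CPM in macrophages, a ratio of 3.48 (3.18 to 3.82), and at 197 and 326 in monocytes, a ratio of 1.65 (1.40 to 1.96). It was also higher in NK cells (4.80), T cells (2.37) and endothelial cells (2.26), and within 1.5-fold in B cells (1.46) and fibroblasts (0.990). Gpihbp1, which carries lipoprotein lipase across the capillary wall and is itself an endothelial marker in the naming, went from 766 to 1557 CPM in endothelial cells, a ratio of 2.03 (1.89 to 2.18). It was 0.643 (0.320 to 1.32) of sham in fibroblasts and within 1.5-fold in macrophages.

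The complement inhibitor gene Cd59a was at 57.8 and 97.3 CPM in endothelial cells, a ratio of 1.68 (1.30 to 2.22), and had a ratio of 1.93 (1.06 to 3.75) in fibroblasts. Its relative Cd59b had 2.94 (0.859 to 15.6) in fibroblasts and 2 and 19 UMIs in macrophages. Cd177, a neutrophil antigen gene, was at 56.4 and 11.7 CPM in monocytes, a ratio of 0.207 (0.142 to 0.307). In fibroblasts it was at 0.163 of sham, from 15 and 5 UMIs. Its ratio was 14.0 (4.59 to 69.8) in macrophages, from 3 and 64 UMIs. It was 8.09 (2.65 to 40.2) in T cells, from 3 and 66, and 7.37 (2.58 to 25.7) in B cells, from 5 and 16. The part of neutrophil RNA in these Cd177 values was not tested. Ly6g5b in T cells (0.426) and Ly6g6d in macrophages (0.425) were lower, from levels under 8 CPM. Lypd1 in fibroblasts had a ratio of 1.96 (0.714 to 6.69), and Ly6k, Lynx1 and Ly6g6e were within 1.5-fold. The relatives thus differed in both directions.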

How the data were processed

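The deposited files hold raw UMI counts for each gene in each barcode, which the authors made with Cell Ranger 3.0 on mm10, per the submitters' processing notes. The sources used here do not say how barcodes were called as cells, and GEM wells could not be separated.

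Barcodes were kept if they had 300 or more genes and no more than 10% mitochondrial UMIs. Scrublet was run per library. Both libraries were clustered together without integration (2000 variable genes without the Ly6 genes, 30 components, 15 neighbours, Leiden resolution 1). A cluster was named for a class when 3 or more of its 10 leading genes were that class's markers. Failing that, it was named for the class with most of its markers seen in 50% or more of the cells, provided that 55% or more of them were and that no other class had more leading genes. Clusters that met neither (562 sham and 286 TAC cells) stayed unnamed. The unnamed clusters include cells that looser naming calls macrophages. A class was compared if each library held 50 or more of its cells.

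UMIs were summed per class and given as CPM with exact Poisson intervals. Ratios carry exact conditional intervals, shares Clopper-Pearson intervals. A gene was called with at least 20 UMIs over both libraries and a 1.5-fold difference, with 0.5 UMI added in log2 ratios. Where a library had 0 UMIs, the bound against 3 UMIs was used. The scripts were tested on simulated data. All 7 members were named in every class, relatives with at least 20 UMIs in a compared class, the 2 top and 2 bottom ratios of other lists at most, and the 3 most similar genes with at least 50 CPM in a sum. Melk and Vsig4 and the other cluster genes were named as leading genes. The members and lists were chosen with earlier results of these data known. Some genes that the rule would name are not reported here. Alternatives were other cell filters, clusterings, scalings, UMI minimums and folds. The software was scanpy 1.11.5 with igraph 0.11.9 and scikit-learn 1.9.0 for clustering, and scipy 1.17.1, numpy 2.4.6 and pandas 2.3.3 under Python 3.11.15 for counting, with matplotlib 3.10.9.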

Additional observations from a re-analysis of the deposited data

Results flagged for a closer look

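Ly6d, which was highest in B cells, had log2 ratios of TAC to sham in opposite directions in other classes: 2.22 in endothelial cells and -3.03 in T cells. The difference between the classes was not tested. In TAC all 50 endothelial UMIs and all 11 T cell UMIs were in barcodes that also held a B cell gene, and in sham 3 of 3 and 31 of 34 were. The part of such barcodes in the 2 ratios was not tested.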

How the results depend on the processing

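No paired analysis was possible because each group is 1 library, and for the same reason no replicate could be left out. For the 40 log2 ratios, 378 values under 10 alternatives were computed. Of these, 313 stayed within the counting interval, 61 moved outside it in the same direction and 4 were labelled reversed. Values that changed sign inside a wide interval were not labelled so, such as Ly6i in endothelial cells (0.49, and -0.24 with cells weighted equally). The reversals were Ly6g in NK cells (-0.64 with the Ly6 genes among the variable genes), Ly6c1 in T cells (-0.96 with C1q-rich and S100-rich barcodes left out and -0.30 after thinning to 1000 UMIs) and Ly6d in T cells (0.68 with those barcodes left out). The cause was not tested. With C1q-rich and S100-rich barcodes left out, 3 members were higher in T cells and Ly6c1 was lower. After thinning, which leaves fewer UMIs, 3 members were higher in each of NK cells, T cells, endothelial cells and monocytes, and 0 were lower in T cells. At a minimum of 50 UMIs, which leaves fewer genes, 3 members were higher in NK cells and 0 lower in T cells. At 2-fold, 1 member was higher in NK cells. With no minimum, 1 was lower in endothelial cells, 2 in fibroblasts and 1 in macrophages. These counts are given without the members tested or the share of all genes called under each setting. They therefore describe the members only. For 12 further values there was no ratio because both libraries held at most 3 UMIs. With C1q-rich and S100-rich barcodes left out, B cells (6 and 14 cells) and NK cells (3 and 40) fell under the minimum of 10 cells in each library and were not counted. In these few cells the ratio was 9.16 (3.76 to 29.0) for Ly6a and 4.44 (2.81 to 7.38) for Ly6d in B cells, and 0.381 (0.234 to 0.662) for Ly6c2 in NK cells, opposite to 1.89 in all NK cells. The looser naming was chosen after seeing the data. Depth limits Ly6g, Ly6i and Ly6d outside their own classes, where most values rest on under 100 UMIs.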
